A study of Mus musculus with 12 samples.

Results

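The genes described here are 46 genes of DNA replication and S phase, taken by name from the deposited count table of BV2 cells, an immortalized mouse microglial line. All 46 are in the table of 21834 genes, and all 46 were among the 11626 genes tested, which had at least 0.5 counts per 1000000 (CPM) in at least 3 libraries. The series profiled RNA of 2 stable lines made by lentiviral shRNA and puromycin selection, 1 with a control shRNA (shCtrl) and 1 with an shRNA against Anxa2 (shAnxa2), the gene of the membrane-binding protein annexin A2. Each line was left untreated (CTRL) or taken through oxygen-glucose deprivation and reoxygenation (OGD/R), a culture model of ischemia. The groups were shCtrl-CTRL, shCtrl-OGDR, shAnxa2-CTRL and shAnxa2-OGDR, with 3 libraries each, and all cells carried a puromycin-selected shRNA construct. The treated cells spent 4 h in DMEM without glucose under 94% N2, 5% CO2 and 1% O2, and then 12 h in normal medium according to the sample labels, whereas the methods of the study give a longer reoxygenation. Since there was 1 line per shRNA, the shRNA target and any other difference between the lines cannot be told apart. The methods call the libraries biological replicates, each made of technical replicates, so p-values measure the spread between these libraries.

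Before S phase, the origin recognition complex, Cdc6 and Cdt1 load the Mcm2 to Mcm7 ring onto origins of replication, and Cdc45 and the GINS complex turn the loaded ring into the moving helicase. Polymerases, the sliding clamp Pcna, its loaders and the single-strand binding protein RPA then copy the strands, while ribonucleotide reductase and thymidylate synthase supply deoxynucleotides and chromatin factors repackage the new DNA. Many of these genes are transcribed from late G1 into S phase by E2F factors, so their messenger RNA is often read together as a mark of cells entering S phase. In a bulk sample, however, fewer cells in S phase and less RNA per cell cannot be told apart.

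Total counts per library ranged from 19521877 to 27288843, and the lowest count of a member in any library was 134, of Pole2. Anxa2 (ENSMUSG00000032231, mm39 chr9:69360902-69399077, plus strand), the targeted gene, was at 164, 174 and 177 CPM in shCtrl-CTRL, 251, 294 and 291 in shCtrl-OGDR, 34.95, 44.4 and 41.8 in shAnxa2-CTRL, and 18.2, 20.1 and 20.6 in shAnxa2-OGDR. All 6 shAnxa2 libraries lay below all 6 shCtrl libraries, so that Anxa2 followed the shRNA names, although another label field calls the cells of both OGDR groups Anxa2 knockdown. Its log2 fold change after OGD/R was 0.70 (SE 0.06, adjusted p = 1.2e-09) in shCtrl cells and -1.04 (SE 0.08, adjusted p = 3.1e-10) in shAnxa2 cells. All 12 microglia and macrophage markers were among the genes tested and summed to 1840 to 2251 CPM, while none of the 4 neuronal and none of the 3 fibroblast markers passed the filter. The summed markers of oligodendrocytes, the highest of the other types, stayed between 4.08 and 6.61 CPM. Among the microglia and macrophage markers, group means were 1.73 to 10.3 CPM for P2ry12, Cx3cr1, Aif1 and Tmem119, against 398 to 584 CPM for Csf1r.

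No targeted gene marks the treatment, and Anxa2 itself moved in opposite directions after OGD/R in the 2 lines. Over all genes tested, 2 libraries were compared by the root of the mean squared difference in log2(CPM + 0.1), which was 0.416 between shCtrl-CTRL and shAnxa2-OGDR and 0.453 between shCtrl-OGDR and shAnxa2-CTRL, against 0.496 to 0.673 for the other pairs of groups and 0.252 to 0.280 within groups. Over the 46 members the same 2 pairs were at 0.205 and 0.244, against 0.477 to 0.652 for the other pairs and 0.103 to 0.122 within groups. Each shAnxa2 group was therefore closest to the shCtrl group of the other treatment name. Whether the treatment names of the shAnxa2 libraries were exchanged was not tested, the names were used as deposited, and every direction, size and count given for OGD/R in shAnxa2 cells, between the lines or for the interaction rests on them.

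The promoters of the members with the highest and the lowest difference between the lines in their change after OGD/R are shown to let a reader see the letters beside the expression values. They are RefSeq sequences of GRCm38.p6, 250 bases before to 50 bases after the annotated start, printed 5′ to 3′ on the strand of the gene. Of the 46 members, 38 had 1 or more entries. The first listed entry was used for the printed sequences and for the plot of match positions. The shares of entries and the split of members by E2F match used all entries. Capitals mark matches on either strand to the E2F site, spelled TTTCCCGC, TTTCGCGC, TTTGCCGC or TTTGGCGC, and to the CCAAT box, spelled CCAAT. The 3 members with the highest difference are Cdc6, Uhrf1 and Rrm2.
Cdc6, chr11:98907901-98908200, plus strand: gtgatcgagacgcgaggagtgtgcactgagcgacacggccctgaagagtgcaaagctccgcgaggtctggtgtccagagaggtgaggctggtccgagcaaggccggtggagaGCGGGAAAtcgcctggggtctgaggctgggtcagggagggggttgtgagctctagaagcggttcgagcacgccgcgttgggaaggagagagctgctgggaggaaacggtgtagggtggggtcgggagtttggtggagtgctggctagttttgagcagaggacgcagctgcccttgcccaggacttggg
Uhrf1, chr17:56303087-56303386, plus strand: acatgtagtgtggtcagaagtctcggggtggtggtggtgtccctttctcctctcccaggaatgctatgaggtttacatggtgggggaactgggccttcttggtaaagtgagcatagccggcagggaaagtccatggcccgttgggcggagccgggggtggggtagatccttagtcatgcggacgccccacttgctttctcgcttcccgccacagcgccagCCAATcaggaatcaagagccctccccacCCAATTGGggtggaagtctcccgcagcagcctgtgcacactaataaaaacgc
Rrm2, chr12:24708004-24708303, plus strand: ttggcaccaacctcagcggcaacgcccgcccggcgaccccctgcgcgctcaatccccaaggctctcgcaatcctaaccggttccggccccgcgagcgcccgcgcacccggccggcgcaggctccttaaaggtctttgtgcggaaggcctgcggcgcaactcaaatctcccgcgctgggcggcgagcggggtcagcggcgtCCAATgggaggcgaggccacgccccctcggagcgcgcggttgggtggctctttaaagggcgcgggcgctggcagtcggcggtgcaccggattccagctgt
The 3 members with the lowest difference among those with an entry are Rfc5, Tk1 and Pold1.
Rfc5, chr5:117388974-117389273, minus strand: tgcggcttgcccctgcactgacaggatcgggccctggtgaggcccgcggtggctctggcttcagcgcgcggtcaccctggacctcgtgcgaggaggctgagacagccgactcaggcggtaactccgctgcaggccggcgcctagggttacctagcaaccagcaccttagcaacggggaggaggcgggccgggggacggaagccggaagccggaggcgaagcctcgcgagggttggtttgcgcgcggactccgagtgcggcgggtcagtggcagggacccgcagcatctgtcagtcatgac
Tk1, chr11:117825965-117826264, minus strand: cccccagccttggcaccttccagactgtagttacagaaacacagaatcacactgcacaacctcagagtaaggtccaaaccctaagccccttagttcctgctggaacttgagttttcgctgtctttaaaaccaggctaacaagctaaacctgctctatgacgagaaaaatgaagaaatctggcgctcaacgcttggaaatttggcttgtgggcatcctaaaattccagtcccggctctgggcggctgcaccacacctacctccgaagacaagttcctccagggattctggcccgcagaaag
Pold1, chr7:44548766-44549065, minus strand: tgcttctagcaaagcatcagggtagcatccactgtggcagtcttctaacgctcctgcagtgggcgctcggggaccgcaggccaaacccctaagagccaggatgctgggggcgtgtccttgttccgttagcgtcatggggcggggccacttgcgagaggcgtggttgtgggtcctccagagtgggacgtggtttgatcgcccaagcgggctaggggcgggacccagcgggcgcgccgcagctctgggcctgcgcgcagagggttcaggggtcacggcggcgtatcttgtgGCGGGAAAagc
An E2F match stood in the printed sequences of Cdc6 and Pold1 and in none of the other 4. Uhrf1 had 2 entries, and the one not printed held an E2F match. CCAAT boxes stood in the printed sequences of Uhrf1, with 3, and Rrm2, with 1. In Uhrf1 a pair of the boxes overlap on opposite strands.

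Across members, E2F letters were much more frequent than in promoters at large. Of 45 entries of the 38 members, 15 held at least 1 E2F match, or 33.3%, against 2.26% of all 32851 entries and 4.03% of 11928 entries of genes tested. The CCAAT box was in 62.2% of the members' entries, 37.4% of all and 37.8% of those of genes tested. The GC box GGGCGG was in 73.3%, 35.7% and 61.8%, and the CHR element TTTGAA, known from genes of mitosis, was in 13.3%, 17.9% and 12.3%. The interaction of the 15 members with an E2F match in any entry had a median of 1.05, from 0.22 for Pold1 to 2.43 for Cdc6. That of members without a match in any entry had a median of 0.82, from 0.08 to 2.05. Members with a match only in an entry not listed first, such as Uhrf1, count among the 15. They have no E2F symbol in the plot of match positions. A match is a description of the letters, and its absence says only that these letters are not in the window. The members without an entry were Mcm4, Gins1, Gins2, Gins4, Rfc2, Dscc1, Prim2 and Pole.

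**Figure D1:**
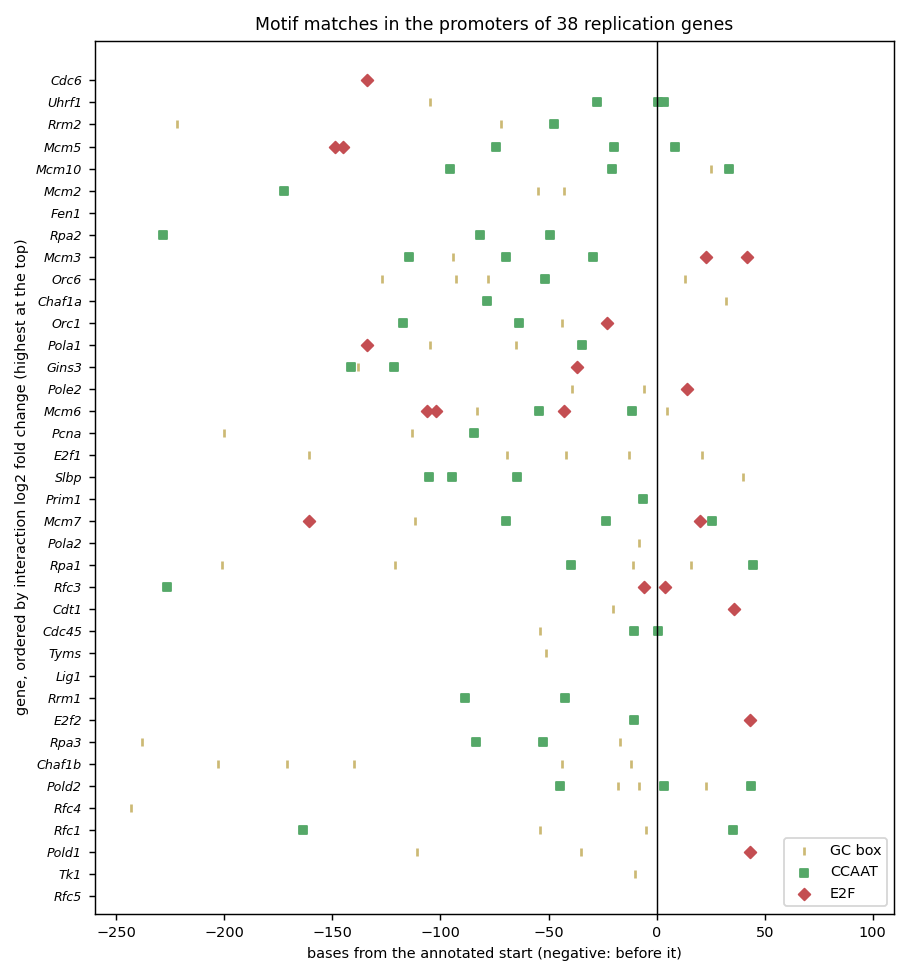
Motif matches in the promoter windows of 38 replication genes. The x axis is the distance in bases from the annotated start (first-listed RefSeq entry), rows are genes ordered by the difference between the lines in their log2 fold change after OGD/R, and symbols mark E2F, CCAAT and GC box matches; E2F matches occur from Cdc6 at the top to Pold1 near the bottom.

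The first comparison asked what OGD/R does to these genes in control cells. In shCtrl cells 39 of 46 members fell and 0 rose at an adjusted p under 0.05 (quasi-likelihood test of edgeR, adjusted by Benjamini-Hochberg), where 31.0% of all genes tested fell and 32.4% rose. The median log2 fold change of the members was -0.41, from -1.49 for Cdc6 to 0.12 for Gins4, and the median over all genes tested was near 0. The fall was at least 1 on the log2 scale for 3 members, Cdc6, Rrm2 and Uhrf1. The 7 members without a call were Gins1, Gins4, Rfc1, Rfc2, Pold1, Rpa3 and Tk1.

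In shAnxa2 cells the same comparison of names ran the other way. After OGD/R 44 members rose and 0 fell, where 28.2% of all genes rose and 26.8% fell. The median log2 fold change was 0.44, from -0.05 for Rfc5 to 1.03 for Uhrf1, and Rfc4 and Rfc5 were not called. Both calls, lower in shCtrl and higher in shAnxa2 cells, were made for 37 members, or for 22.4% of all genes tested. No member was called in the same direction in both lines.

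The difference itself was tested as the interaction of line and OGD/R. It was called for 42 members, all with a more positive change in shAnxa2 cells, where 34.9% of all genes were called in that direction and 35.1% in the other. The 4 members without a call were Gins4 at 0.03 (interval -0.15 to 0.20), Rfc2 at 0.08 (interval -0.06 to 0.21), Rfc5 at 0.08 (interval -0.07 to 0.23) and Tk1 at 0.15 (interval 0.01 to 0.30), where the interval is the log2 value with 2 SE to either side. The intervals leave room for a difference of up to 0.30 on the log2 scale, for Tk1. Without the third shAnxa2-CTRL library the interaction of Tk1 was 0.20 and was called (adjusted p = 0.019 by the same test).

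As a check of how far this rests on the treatment names, the 2 changes were also summed, since with those of the shAnxa2 libraries exchanged the interaction would equal this sum with the opposite sign. The sum was called for 14 members, 6 higher and 8 lower, where 7.96% of all genes were higher and 6.45% lower. Its median was -0.0034, from -0.56 for Cdc6 to 0.35 for Gins1, against a median interaction of 0.83, and it was smaller in size than the interaction for 41 members. For Uhrf1, with an interaction of 2.06, the sum was 0.01 (SE 0.07, adjusted p = 0.96). The sum was added after the values were seen.

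Summed over the 46 members, 73.4 ± 0.998 of every 10000 counts came from these genes in shCtrl-CTRL, 50.7 ± 0.489 in shCtrl-OGDR, 53.1 ± 0.507 in shAnxa2-CTRL and 73.8 ± 0.252 in shAnxa2-OGDR (SD, n = 3). The groups thus formed a low pair and a high pair. For 40 of 46 members shCtrl-OGDR and shAnxa2-CTRL were the groups with the lowest means, as for 30.4% of all genes tested, a count that involves no test.

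**Figure D2:**
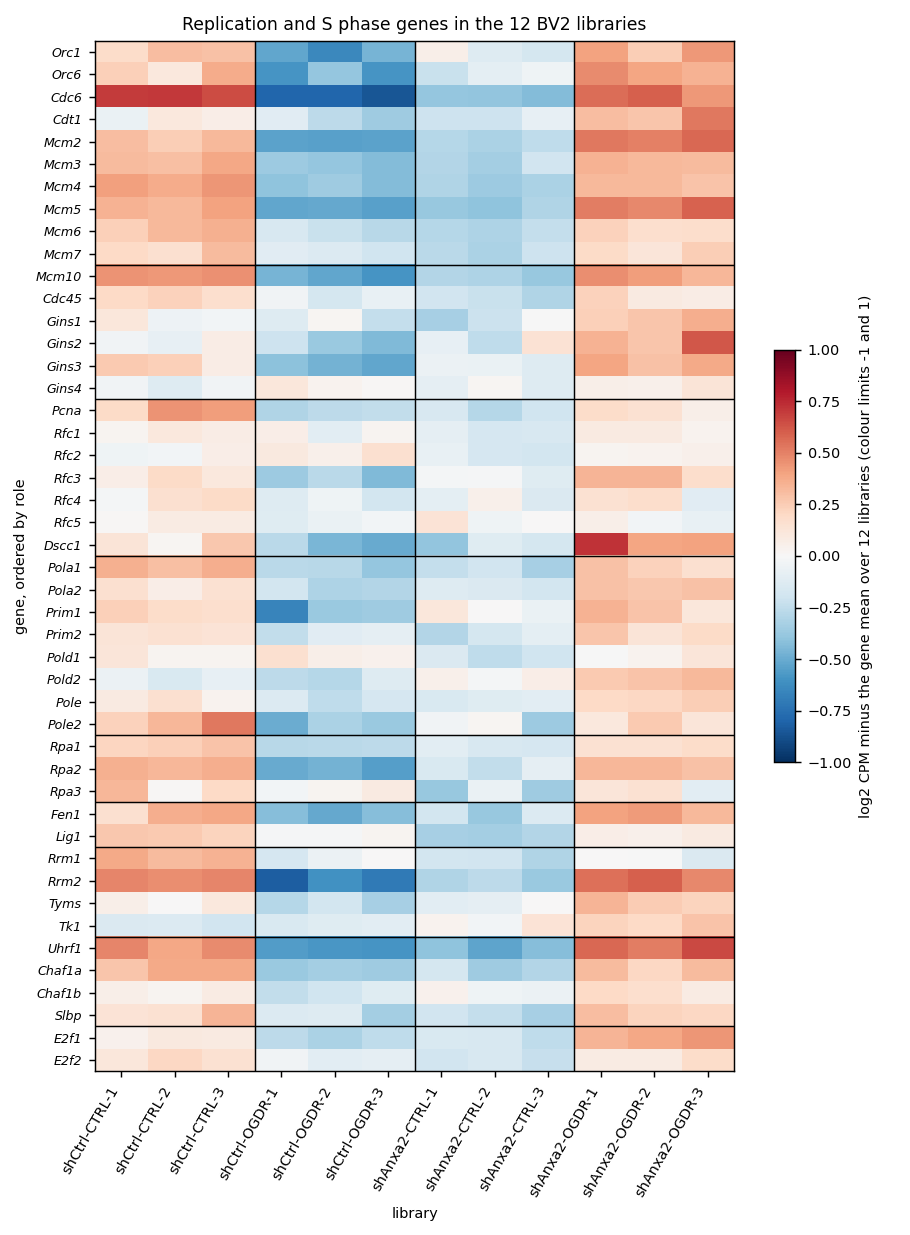
The 46 members in each of the 12 libraries. Rows are genes grouped by role with lines between roles, columns are libraries with lines between groups, and colour is log2 CPM minus the mean of the gene over the 12 libraries; most rows are blue in shCtrl-OGDR and shAnxa2-CTRL and red in shCtrl-CTRL and shAnxa2-OGDR, and Gins4, Rfc2, Rfc5 and Tk1 are pale.

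**Figure D3:**
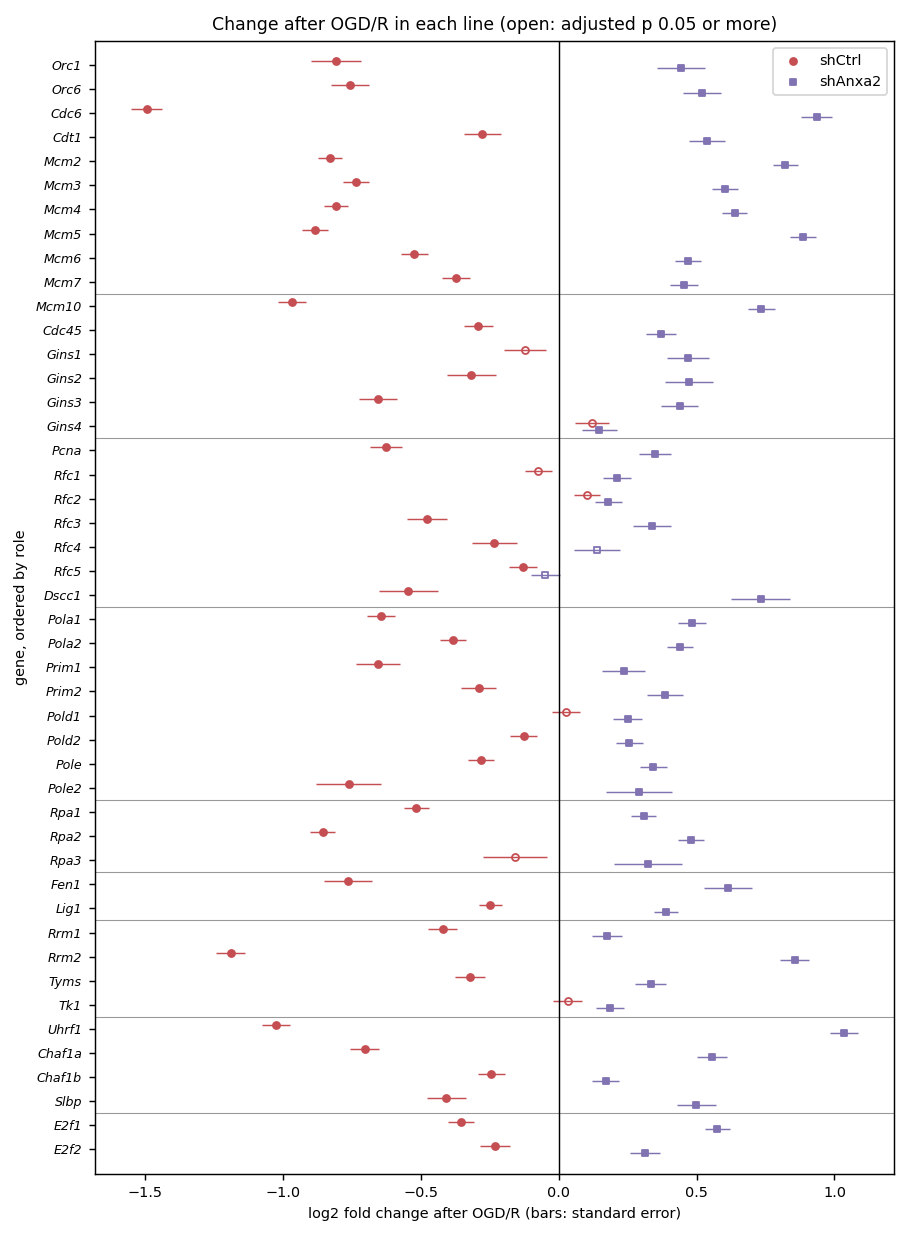
Log2 fold change after OGD/R in shCtrl cells (red circles) and shAnxa2 cells (purple squares) for the 46 members, ordered by role. Bars are standard errors from the edgeR fit and open symbols have an adjusted p of 0.05 or more; 39 filled circles lie left of 0 and 44 filled squares right of it.

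Origin recognition and licensing genes had the largest median change of the 9 roles in both lines. All 10 fell in shCtrl cells, with a median log2 fold change of -0.78, and all 10 rose in shAnxa2 cells, with a median of 0.57. Cdc6 (ENSMUSG00000017499, mm39 chr11:98798627-98814766, plus strand), the ATPase that helps load the MCM ring, was at 83.7, 84.3 and 81.1 CPM in shCtrl-CTRL, 29.9, 29.8 and 28.6 in shCtrl-OGDR, 39.6, 39.3 and 38.3 in shAnxa2-CTRL, and 76.1, 78.1 and 69.9 in shAnxa2-OGDR. The groups did not overlap, and the OGDR values of shCtrl cells were the lowest of all. Its log2 fold change after OGD/R was -1.49 (SE 0.06, adjusted p = 1.9e-16) in shCtrl cells, a 2.82-fold fall, and 0.94 (SE 0.06, adjusted p = 2.9e-12) in shAnxa2 cells. Cdt1 (ENSMUSG00000006585, mm39 chr8:123294754-123300293, plus strand), the partner of Cdc6 in loading, had the smallest interaction in this role and was at 98.7, 111 and 108 CPM in shCtrl-CTRL, 95.2, 86.0 and 80.8 in shCtrl-OGDR, 89.5, 89.6 and 97.5 in shAnxa2-CTRL, and 128, 125 and 149 in shAnxa2-OGDR. The shCtrl-OGDR and shAnxa2-CTRL libraries overlapped, and shAnxa2-OGDR stood above the rest. Its changes were -0.28 (SE 0.07, adjusted p = 8.3e-04) and 0.54 (SE 0.07, adjusted p = 3.1e-07).

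The genes of the MCM ring subunits all fell in shCtrl cells, by unlike amounts. The log2 fold changes there were -0.83 for Mcm2, -0.73 for Mcm3, -0.81 for Mcm4, -0.88 for Mcm5, -0.52 for Mcm6 and -0.37 for Mcm7, all called. In shAnxa2 cells they were 0.82, 0.60, 0.64, 0.89, 0.47 and 0.45 in the same order, also all called. Per kilobase of exon, Mcm4 was the lowest and Mcm3 the highest subunit in every group, at 67.8 and 165 RPKM (CPM divided by the exon length in kilobases) in shCtrl-CTRL and at 38.7 and 98.9 RPKM in shCtrl-OGDR. The ratio of the highest to the lowest RNA level stayed between 2.43 and 2.65 in the 4 groups. The ranking depends on the exon length, which joins all annotated exons of a gene, 6956 bases for Mcm2 and 3752 for Mcm3. In CPM, without division by length, Mcm2 was above Mcm3 in shAnxa2-OGDR, with means of 691 and 615. The RPKM ratio covers only Mcm3 and Mcm4, and other subunits shifted against each other. Mcm5 was at 132 and Mcm7 at 96.7 RPKM in shCtrl-CTRL, but at 71.3 and 74.6 RPKM in shCtrl-OGDR. The protein level of the ring was not measured here. Of the origin recognition complex, Orc1, its regulated large subunit, changed by -0.81 and 0.44, and Orc6 by -0.76 and 0.52.

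Among the 6 helicase activation genes, 4 fell in shCtrl cells and all 6 rose in shAnxa2 cells. Mcm10 (ENSMUSG00000026669, mm39 chr2:4994525-5017602, minus strand), which helps the helicase to start unwinding, was at 144, 143 and 145 CPM in shCtrl-CTRL, 76.9, 73.9 and 70.3 in shCtrl-OGDR, 86.2, 85.6 and 81.3 in shAnxa2-CTRL, and 146, 142 and 133 in shAnxa2-OGDR. Its 2 low groups and 2 high groups were well apart, and shCtrl-CTRL and shAnxa2-OGDR overlapped. The log2 fold changes were -0.97 (SE 0.05, adjusted p = 3.7e-14) in shCtrl cells and 0.73 (SE 0.05, adjusted p = 1.7e-11) in shAnxa2 cells. Gins4 (ENSMUSG00000031546, mm39 chr8:23716632-23727675, minus strand), a GINS subunit, was at 39.0, 36.4 and 39.0 CPM in shCtrl-CTRL, 43.2, 40.8 and 40.2 in shCtrl-OGDR, 37.5, 40.4 and 36.5 in shAnxa2-CTRL, and 41.6, 41.4 and 43.5 in shAnxa2-OGDR. All its values lay in a narrow band, and it was higher in the OGDR libraries of both lines without overlap. Its changes were 0.12 (SE 0.06, adjusted p = 0.091) and 0.15 (SE 0.06, adjusted p = 0.0496), and the call in shAnxa2 cells was lost in 18 of 20 alternative fits.

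The GINS subunits thus differed among themselves. Gins3 changed by -0.66 in shCtrl and 0.44 in shAnxa2 cells, Gins2 by -0.32 and 0.47, and Gins1 by -0.12, not called, and 0.47. Cdc45, the helicase cofactor, changed by -0.29 and 0.37.

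The sliding clamp and its loaders differed among themselves, with 5 of 7 lower in shCtrl cells and 5 of 7 higher in shAnxa2 cells. Pcna, the clamp that holds polymerases on DNA, changed by -0.63 (SE 0.06, adjusted p = 1.5e-09) and 0.35 (SE 0.06, adjusted p = 2.1e-05). Dscc1 (ENSMUSG00000022422, mm39 chr15:54939495-54953887, minus strand), a subunit of the alternative loader that also serves sister chromatid cohesion, was at 15.6, 14.5 and 17.2 CPM in shCtrl-CTRL, 11.8, 10.4 and 10.0 in shCtrl-OGDR, 10.9, 13.1 and 12.6 in shAnxa2-CTRL, and 23.5, 18.8 and 18.8 in shAnxa2-OGDR. Its shAnxa2-OGDR libraries were above all others, with the first the highest, and the low groups overlapped. The log2 fold changes were -0.55 (SE 0.11, adjusted p = 1.1e-04) and 0.73 (SE 0.11, adjusted p = 3.2e-06). Rfc2 (ENSMUSG00000023104, mm39 chr5:134610220-134630659, plus strand), a subunit common to the loaders, was at 156, 158 and 168 CPM in shCtrl-CTRL, 172, 166 and 179 in shCtrl-OGDR, 153, 143 and 141 in shAnxa2-CTRL, and 164, 164 and 167 in shAnxa2-OGDR. Here shAnxa2-CTRL was below every other group, while the other 3 groups overlapped each other. Its changes were 0.10 (SE 0.05, adjusted p = 0.062) and 0.18 (SE 0.05, adjusted p = 0.0028).

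The other subunits of the replication factor C loader were no more alike. Rfc3 changed by -0.48 in shCtrl and 0.34 in shAnxa2 cells, whereas Rfc1, the large subunit, was at -0.07, not called, and 0.21. Rfc4 was at -0.23 and 0.14 and Rfc5 at -0.13 and -0.05, both called in shCtrl but not in shAnxa2 cells. For Rfc4 the difference between the lines was called, with an interaction of 0.37 (SE 0.12, adjusted p = 0.0064), and for Rfc5 it was not. The calls in shCtrl cells were each lost in 4 fits that left out 1 shCtrl library (CTRL 2 or 3 for both, OGDR 1 for both, and OGDR 3 for Rfc4 or OGDR 2 for Rfc5), with values of -0.22 to -0.18 for Rfc4 and -0.13 to -0.10 for Rfc5.

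Of the 8 polymerase and primase genes, 7 fell in shCtrl cells and 8 rose in shAnxa2 cells. Pola1 (ENSMUSG00000006678, mm39 chrX:92348373-92675761, minus strand), the catalytic subunit of the polymerase that starts each strand, was at 138, 133 and 139 CPM in shCtrl-CTRL, 89.9, 89.3 and 82.9 in shCtrl-OGDR, 91.8, 94.5 and 85.8 in shAnxa2-CTRL, and 133, 127 and 121 in shAnxa2-OGDR. The low groups overlapped each other and lay below the high groups. Its changes were -0.65 (SE 0.05, adjusted p = 8.0e-11) and 0.48 (SE 0.05, adjusted p = 2.9e-08). Pold1 (ENSMUSG00000038644, mm39 chr7:44182170-44198273, minus strand), the catalytic subunit of the lagging-strand polymerase delta, was at 117, 109 and 109 CPM in shCtrl-CTRL, 119.9, 111 and 110.2 in shCtrl-OGDR, 96.9, 89.7 and 93.4 in shAnxa2-CTRL, and 107, 109 and 117 in shAnxa2-OGDR. Only shAnxa2-CTRL stood apart, below the 9 other libraries. Its changes were 0.03 (SE 0.05, adjusted p = 0.65) and 0.25 (SE 0.05, adjusted p = 2.4e-04).

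The primase subunit Prim1 changed by -0.66 in shCtrl and 0.24 in shAnxa2 cells, and Prim2 by -0.29 and 0.39. Pola2 was at -0.39 and 0.44. Pole, the catalytic subunit of the leading-strand polymerase epsilon, was at -0.28 and 0.34. Its partner Pole2, the member with the lowest count in a single library, was at -0.76 and 0.29. Pold2 was at -0.13 and 0.26, and it was 1 of 2 members higher in untreated shAnxa2 than in untreated shCtrl cells. Leaving out 1 library ended the call of Pold2 in shCtrl cells in 4 fits (CTRL 1 or 3, OGDR 1 or 2, with -0.11 to -0.10). In shAnxa2 cells it ended the call of Prim1 in 3 fits (CTRL 3, OGDR 1 or 2, with 0.19 to 0.21), and that of Pole2 in 5, with 0.18 without shAnxa2-CTRL 3 and 0.23 to 0.32 in the others. Over all 20 alternative fits the call of Pole2 was lost in 9.

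RPA coats single-stranded DNA at the fork, and 2 of its 3 genes fell in shCtrl cells and all 3 rose in shAnxa2 cells. Rpa2 (ENSMUSG00000028884, mm39 chr4:132495643-132506063, plus strand) was at 161, 158 and 162 CPM in shCtrl-CTRL, 88.7, 90.8 and 85.9 in shCtrl-OGDR, 113, 106 and 118 in shAnxa2-CTRL, and 158, 158 and 154 in shAnxa2-OGDR. The high groups overlapped, and the low groups did not. Its changes were -0.86 (SE 0.05, adjusted p = 1.3e-13) and 0.48 (SE 0.05, adjusted p = 7.1e-09). Rpa3 (ENSMUSG00000012483, mm39 chr6:8255936-8259173, minus strand), the small subunit, was at 10.8, 8.65 and 9.85 CPM in shCtrl-CTRL, 8.41, 8.74 and 9.12 in shCtrl-OGDR, 6.60, 8.18 and 6.71 in shAnxa2-CTRL, and 9.34, 9.54 and 7.95 in shAnxa2-OGDR. Its groups overlapped in both OGD/R comparisons, with changes of -0.16 (SE 0.12, adjusted p = 0.24) and 0.32 (SE 0.12, adjusted p = 0.028). Rpa1, the large DNA-binding subunit, was at -0.52 and 0.31. The call of Rpa3 in shAnxa2 cells was lost in 4 fits that left out 1 shAnxa2 library (CTRL 1 or 3, OGDR 1 or 2), with values of 0.27 to 0.30.

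Both enzymes that finish lagging-strand fragments fell in shCtrl and rose in shAnxa2 cells. Fen1 (ENSMUSG00000024742, mm39 chr19:10176496-10181533, minus strand), the flap endonuclease, was at 20.3, 23.3 and 23.7 CPM in shCtrl-CTRL, 13.5, 12.7 and 13.5 in shCtrl-OGDR, 15.99, 13.9 and 16.5 in shAnxa2-CTRL, and 23.98, 24.4 and 22.7 in shAnxa2-OGDR. The 3 shCtrl-OGDR libraries were the lowest. Its changes were -0.76 (SE 0.09, adjusted p = 3.9e-08) and 0.61 (SE 0.09, adjusted p = 2.0e-06). Lig1 (ENSMUSG00000056394, mm39 chr7:13011239-13045350, plus strand), the DNA ligase, was at 167, 166 and 162 CPM in shCtrl-CTRL, 138, 138 and 141 in shCtrl-OGDR, 111, 109.5 and 114 in shAnxa2-CTRL, and 145, 144 and 148 in shAnxa2-OGDR. None of its 4 groups overlapped, with shAnxa2-CTRL lowest and shCtrl-CTRL highest. Its changes were -0.25 (SE 0.04, adjusted p = 1.7e-05) and 0.39 (SE 0.04, adjusted p = 5.7e-08).

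The 4 deoxynucleotide supply genes ranged widely, with 3 lower in shCtrl cells and all 4 higher in shAnxa2 cells. Rrm2 (ENSMUSG00000020649, mm39 chr12:24758240-24764145, plus strand), the S phase subunit of ribonucleotide reductase, was at 183, 180.4 and 183 CPM in shCtrl-CTRL, 73.7, 85.8 and 79.9 in shCtrl-OGDR, 106, 109 and 101 in shAnxa2-CTRL, and 191, 197 and 182 in shAnxa2-OGDR. Its shCtrl-OGDR libraries were lowest, and the high groups overlapped. The changes were -1.19 (SE 0.05, adjusted p = 3.3e-15), a 2.28-fold fall, and 0.86 (SE 0.05, adjusted p = 3.7e-12), a 1.81-fold rise. Its partner subunit Rrm1 was at -0.42 and 0.17, where the second value was 0.14 and not called without shAnxa2-CTRL 3. Tk1 (ENSMUSG00000025574, mm39 chr11:117706352-117716918, minus strand), the thymidine kinase of the salvage route, was at 72.3, 72.7 and 69.8 CPM in shCtrl-CTRL, 71.9, 73.5 and 74.3 in shCtrl-OGDR, 81.8, 78.3 and 87.7 in shAnxa2-CTRL, and 93.2, 91.6 and 97.2 in shAnxa2-OGDR. Here the groups followed the line, with all 6 shAnxa2 libraries above all 6 shCtrl libraries, and the changes after OGD/R were 0.03 (SE 0.05, adjusted p = 0.60) and 0.18 (SE 0.05, adjusted p = 0.0036). Tyms, thymidylate synthase, was at -0.32 and 0.33.

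All 4 chromatin genes fell in shCtrl cells and rose in shAnxa2 cells. Uhrf1 (ENSMUSG00000001228, mm39 chr17:56610321-56630486, plus strand), which brings the maintenance methyltransferase to new DNA, was at 352, 328 and 348 CPM in shCtrl-CTRL, 170.0, 168 and 167 in shCtrl-OGDR, 189, 174 and 187 in shAnxa2-CTRL, and 374, 358 and 396 in shAnxa2-OGDR. The low and high pairs were far apart. Its changes were -1.03 (SE 0.05, adjusted p = 2.0e-14) and 1.03 (SE 0.05, adjusted p = 1.0e-13), a fall of 2.04-fold and a rise of 2.05-fold. Chaf1b (ENSMUSG00000022945, mm39 chr16:93680789-93703003, plus strand), a subunit of the chromatin assembly factor, was at 114, 112 and 116 CPM in shCtrl-CTRL, 92.4, 95.4 and 101 in shCtrl-OGDR, 112, 106 and 105 in shAnxa2-CTRL, and 125, 123 and 116 in shAnxa2-OGDR. Its untreated groups overlapped, and shCtrl-OGDR was lowest. The changes were -0.24 (SE 0.05, adjusted p = 1.1e-04) and 0.17 (SE 0.05, adjusted p = 0.0048). Chaf1a, the large subunit, was at -0.70 and 0.56, and Slbp, which binds histone messenger RNA, at -0.41 and 0.50.

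Of the E2F factors, E2f1 (ENSMUSG00000027490, mm39 chr2:154401327-154411812, minus strand), an activator of the G1 to S transition, was at 121, 126 and 126 CPM in shCtrl-CTRL, 98.7, 95.1 and 99.0 in shCtrl-OGDR, 107, 106 and 99.1 in shAnxa2-CTRL, and 149, 154 and 161 in shAnxa2-OGDR. Its shAnxa2-OGDR libraries were above all others. The changes were -0.35 (SE 0.05, adjusted p = 4.7e-07) and 0.58 (SE 0.05, adjusted p = 4.5e-10). E2f2 (ENSMUSG00000018983, mm39 chr4:135899705-135923368, plus strand), a related activator, was at 59.0, 63.0 and 60.7 CPM in shCtrl-CTRL, 53.3, 50.8 and 51.4 in shCtrl-OGDR, 47.9, 48.8 and 46.5 in shAnxa2-CTRL, and 57.7, 57.8 and 62.2 in shAnxa2-OGDR. Its shAnxa2-CTRL libraries were the lowest, and its high groups overlapped. The changes were -0.23 (SE 0.05, adjusted p = 6.3e-04) and 0.31 (SE 0.06, adjusted p = 4.2e-05).

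**Figure D4:**
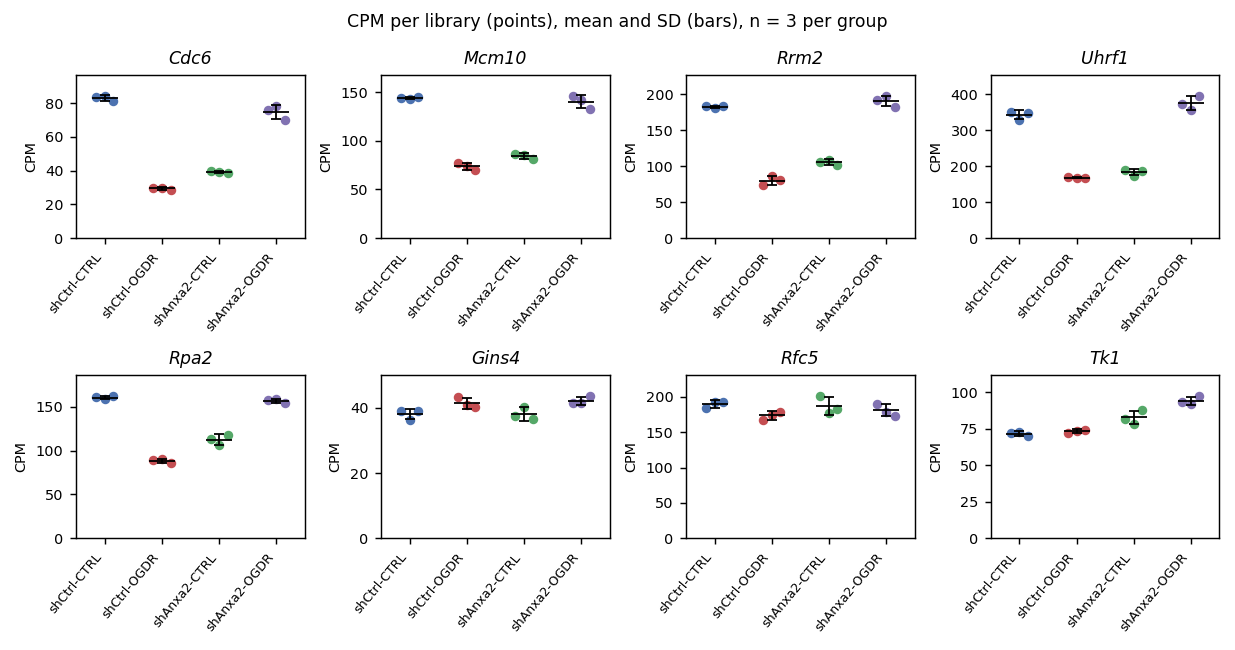
CPM per library for 8 members, with 3 points per group and the mean and SD in black, on axes that start at 0. Cdc6, Mcm10, Rrm2, Uhrf1 and Rpa2 have low values in shCtrl-OGDR and shAnxa2-CTRL, Gins4 and Rfc5 are nearly level, and Tk1 is higher in shAnxa2 than in shCtrl libraries.

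The next question was how the lines differ under each treatment. Without treatment 37 members had a lower and 2 a higher level in the shAnxa2 line than in the shCtrl line, where 29.7% of all genes were lower and 29.5% higher. The median log2 difference was -0.36, from -1.09 for Cdc6 to 0.21 for Tk1, and the 2 higher members were Tk1 and Pold2. After OGD/R 38 members were higher in shAnxa2 cells and 0 lower, where 33.8% of all genes were higher and 34.2% lower. The median was 0.54, from -0.06 for Rfc2 to 1.34 for Cdc6. The 8 members without a call after OGD/R were Gins4, Rfc1, Rfc2, Rfc5, Pold1, Rpa3, Lig1 and Rrm1. Both calls, lower untreated and higher after OGD/R, were made for 31 members and for 16.7% of all genes tested. Leaving out 1 library ended the untreated call in some fits for Cdt1 (-0.18 to -0.16), Gins1 (-0.20 to -0.11), Rfc2 (-0.12 to -0.10), Rfc3 (-0.18 to -0.13) and Pold2 (0.11 to 0.12), and the call after OGD/R for Rfc4 (0.13 to 0.19). Over all 20 alternative fits the calls of Gins1 and Rfc4 were each lost in 7. These comparisons use the same 12 libraries as those after OGD/R and are not independent of them.

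To place the neighbours in the order of levels, the low pair and the high pair were each compared directly. These comparisons cross line and treatment and so isolate neither, and they are also the line comparisons that an exchange of the treatment names of the shAnxa2 libraries would give. Between shAnxa2-CTRL and shCtrl-OGDR 19 members were higher and 6 lower in shAnxa2-CTRL, where 22.1% of all genes were higher and 22% lower. The median was 0.11, from -0.32 for Lig1 to 0.48 for Prim1. The members higher in shAnxa2-CTRL included Orc1 at 0.46 (SE 0.09, adjusted p = 2.9e-04) and Cdc6 at 0.41 (SE 0.06, adjusted p = 5.5e-06), and those lower Rfc2 at -0.24 (SE 0.05, adjusted p = 2.1e-04). Without the third shCtrl-OGDR library 3 members were lower in place of 6, with 2261 of all genes lower. Fen1 lost its call in 9 of 20 alternative fits.

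Between the high groups 13 members were higher and 4 lower in shAnxa2-OGDR than in shCtrl-CTRL, where 21.5% of all genes were higher and 18.4% lower, and 29 were not called. The median was 0.05, from -0.40 for Rrm1 to 0.44 for Gins2. The 4 lower members were Cdc6, Pcna, Lig1 and Rrm1, and the higher ones included Tk1 at 0.39 (SE 0.05, adjusted p = 1.7e-06) and Pold2 at 0.39 (SE 0.05, adjusted p = 1.0e-06). Among the higher members, Pole lost its call in 14 and Uhrf1 in 7 of 20 alternative fits.

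Other genes of the pathway, from lists chosen by function, were read beside the members. For the counts of every list below, 31.0% of all genes tested fell and 32.4% rose in shCtrl cells. In shAnxa2 cells 28.2% of all genes tested rose and 26.8% fell. Of 31 other fork and origin genes, 23 fell and 4 rose in shCtrl cells, and 20 rose and 2 fell in shAnxa2 cells, with medians of -0.36 and 0.26. Orc2, an origin recognition subunit, was the lowest in shCtrl cells at -1.12 (SE 0.06, adjusted p = 3.6e-14) and was 0.71 (SE 0.06, adjusted p = 2.4e-10) in shAnxa2 cells. Pold4, the small subunit of polymerase delta, was the highest at 0.91 (SE 0.08, adjusted p = 3.4e-10) and was -0.38 (SE 0.08, adjusted p = 3.4e-04) in shAnxa2 cells. Of 13 other nucleotide and chromatin genes, 11 fell and 1 rose in shCtrl cells, and 12 rose and 1 fell in shAnxa2 cells. The lowest was Hells, a chromatin remodeler, at -1.04 (SE 0.06, adjusted p = 1.7e-13), and the highest Rrm2b, the reductase subunit of damaged and resting cells, at 0.39 (SE 0.07, adjusted p = 4.4e-05), and in shAnxa2 cells they were 0.77 and -0.41.

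Most genes of the list of E2F and G1/S regulators had the main direction of the members, with medians of -0.41 in shCtrl and 0.40 in shAnxa2 cells. Of 23 tested genes of the E2F family, pocket proteins and G1/S regulators, 18 fell and 4 rose in shCtrl cells, and 16 rose and 4 fell in shAnxa2 cells. Ccne2, a cyclin that drives S phase entry, was the lowest in shCtrl cells at -1.56 (SE 0.11, adjusted p = 5.2e-12) and was 0.43 (SE 0.10, adjusted p = 6.8e-04) in shAnxa2 cells. Myc, a growth factor-induced transcription factor, was the highest at 1.99 (SE 0.15, adjusted p = 4.6e-11) and was -1.42 (SE 0.16, adjusted p = 7.0e-08) in shAnxa2 cells, so that its direction was opposite to that of most members in both lines. Of the 5 cyclin-dependent kinase inhibitors, which hold cells out of S phase, 2 rose and 0 fell in shCtrl cells, and 3 fell and 1 rose in shAnxa2 cells. With only 5 genes, and 32.4% of all genes higher in shCtrl cells, no direction of this list can be read from the counts. Cdkn1c had the highest value in shCtrl cells, 0.75 (SE 0.45, adjusted p = 0.15), and Cdkn2c the lowest, 0.06 (SE 0.07, adjusted p = 0.49), neither of them called.

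Checkpoint genes and genes of later steps of the cycle also had the main direction of the members. Of 16 replication checkpoint and fork repair genes, 13 fell and 2 rose in shCtrl cells, and 12 rose and 2 fell in shAnxa2 cells. Exo1, a repair exonuclease, was the lowest in shCtrl cells at -1.04 (SE 0.05, adjusted p = 7.4e-15), and Atr, the checkpoint kinase of stalled forks, the highest at 0.40 (SE 0.06, adjusted p = 7.2e-06), and in shAnxa2 cells they were 0.75 and -0.47. Of 30 G2/M and mitosis genes, 21 fell and 5 rose in shCtrl cells, and 19 rose and 4 fell in shAnxa2 cells. Their medians of -0.25 and 0.19 were nearer to 0 than those of the members. Cdk1, the kinase of mitotic entry, was the lowest in shCtrl cells at -0.57 (SE 0.05, adjusted p = 8.8e-10), and Ccnb2, one of its cyclins, the highest at 0.48 (SE 0.05, adjusted p = 1.3e-08), and in shAnxa2 cells they were 0.36 and -0.37.

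Histone genes taken by name numbered 69, of which 56 were tested. In shCtrl cells 48 fell and 3 rose, with a median of -0.48, and in shAnxa2 cells 38 rose and 6 fell, with a median of 0.42. H2ac6 was the lowest in shCtrl cells at -1.03 (SE 0.09, adjusted p = 6.2e-10) and was 0.78 (SE 0.09, adjusted p = 9.5e-08) in shAnxa2 cells. The highest was H1f0 at 1.02 (SE 0.05, adjusted p = 2.9e-14) and -1.17 (SE 0.05, adjusted p = 2.6e-14), a linker histone of non-dividing cells that is not made in step with replication. Many histone genes are near-identical copies, so the reads of single genes are uncertain. Their sum was 11358 to 11896 CPM in shCtrl-OGDR and 14893 to 15677 CPM in shCtrl-CTRL, 12271 to 14889 CPM in shAnxa2-CTRL and 16248 to 18062 CPM in shAnxa2-OGDR.

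**Figure D5:**
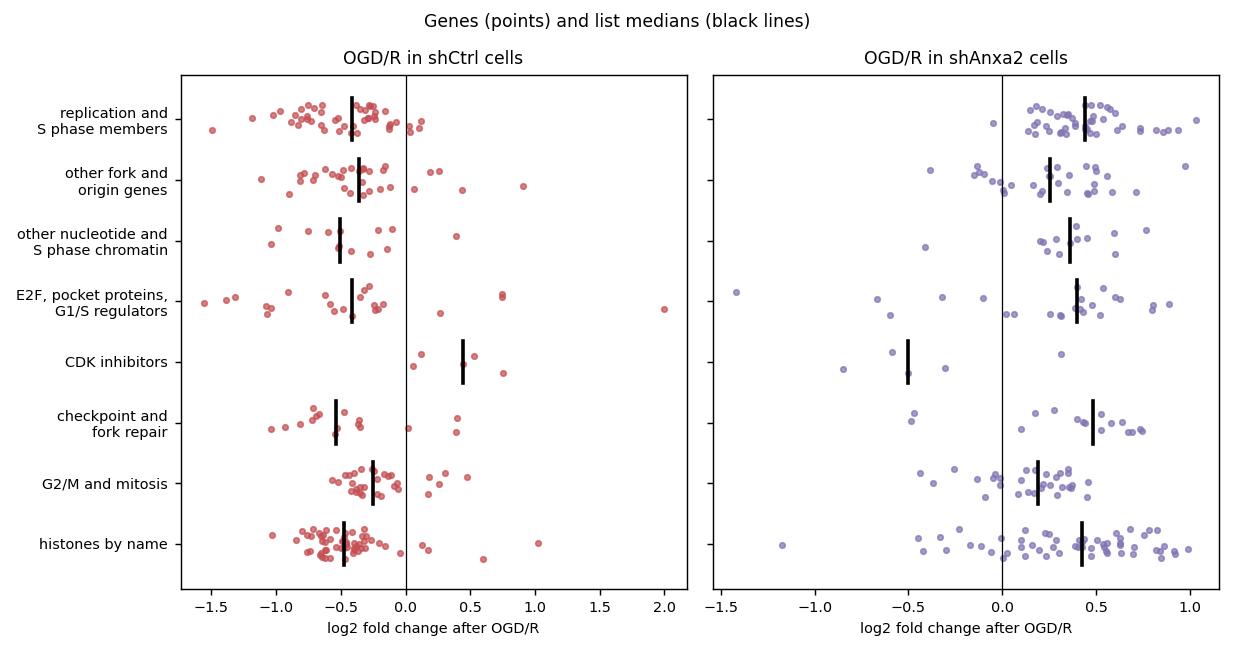
Log2 fold change after OGD/R in shCtrl cells (left) and shAnxa2 cells (right) for the members and 7 lists of other genes, with 1 point per gene tested and a black line at the median. The medians of all lists but the kinase inhibitors are below 0 on the left and above 0 on the right, and Myc is the rightmost point on the left and the leftmost on the right.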

How the data were processed

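RNA-seq was made from 12 libraries of BV2 cells, grouped by sample name into 4 groups of 3. The authors deposited raw read counts per gene, without normalization, and the same table holds 12 columns of signal per gene (counts divided by size factors), which were not used. The submitters' processing notes name HISAT2 2.0.4 and mm39, while the methods of the study, written for hippocampi, name other tools. Which reads were counted on which strand is not given in the sources used here.

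From the counts, genes with at least 0.5 CPM in at least 3 libraries were fitted with edgeR 4.0.16 in R 4.3.3 (TMM factors, 1 quasi-likelihood model over the 12 libraries, Benjamini-Hochberg adjustment over 11626 genes, called at an adjusted p under 0.05). CPM values use the TMM factors. RPKM values divide them by the joined length of all annotated exons of a gene in GENCODE, with overlaps counted once. Standard errors are the log2 fold change divided by the root of the F statistic. The steps were run on simulated data with the same spread for every gene and changes in shCtrl-OGDR alone. Those settings differ from these data, so that run gives no error rate for them. With 3 against 3 libraries, an exact permutation test of 1 value cannot go below p = 0.1, so none is quoted. Promoter letters are from a RefSeq table of GRCm38.p6, a different build from the counts, matched by symbol.

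The members and lists were chosen with earlier results of these data known. Within each role, values in every library are given for the member with the largest and the member with the smallest interaction, and from each other list the genes with the highest and lowest change after OGD/R in shCtrl cells are named. Alternatives were median-of-ratios factors, library totals, DESeq2 1.42.0, limma 3.58.1 with voom, no filter or a filter of 1 CPM, a replicate block, 2 groups alone, fold limits (those of the general methods of the study, and a stricter one that the study used for BV2 cells, added after the data were seen), and leaving out each library. Python 3.11.15 with pandas 2.3.3 and matplotlib 3.10.9 made tables and plots.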

Additional observations from a re-analysis of the deposited data

Results flagged for a closer look

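These results stood out because the change after OGD/R differed between the lines by the interaction test of edgeR's quasi-likelihood fit with Benjamini-Hochberg adjustment, with 4 groups of 3 libraries. The difference was called for 42 of the 46 members, all with a more positive change in shAnxa2 cells. Of all genes tested, 34.9% were called in that direction and 35.1% in the other. Each value below is the log2 fold change after OGD/R in shAnxa2 cells minus that in shCtrl cells. The direction, the size and the number of called differences rest on the treatment names as deposited, and whether those of the shAnxa2 libraries were exchanged was not tested. With those names exchanged the difference would equal the sum of the 2 changes with the opposite sign. That sum was called for 14 members (6 higher and 8 lower), where 7.96% of all genes were higher and 6.45% lower. Its median was -0.0034, against a median difference of 0.83 for the names as deposited.

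In origin recognition and licensing the difference was 2.43 for Cdc6, 1.77 for Mcm5, 1.65 for Mcm2, 1.45 for Mcm4, 1.34 for Mcm3, 1.28 for Orc6, 1.25 for Orc1, 0.99 for Mcm6, 0.83 for Mcm7 and 0.81 for Cdt1. In helicase activation the difference was 1.70 for Mcm10, 1.10 for Gins3, 0.79 for Gins2, 0.66 for Cdc45 and 0.59 for Gins1. For the sliding clamp and its loaders the difference was 1.28 for Dscc1, 0.98 for Pcna, 0.82 for Rfc3, 0.37 for Rfc4 and 0.29 for Rfc1. For polymerases and primase the difference was 1.13 for Pola1, 1.05 for Pole2, 0.89 for Prim1, 0.82 for Pola2, 0.68 for Prim2, 0.63 for Pole, 0.38 for Pold2 and 0.22 for Pold1. For the RPA genes the difference was 1.34 for Rpa2, 0.82 for Rpa1 and 0.48 for Rpa3. For flap removal and ligation the difference was 1.38 for Fen1 and 0.64 for Lig1. In deoxynucleotide supply the difference was 2.05 for Rrm2, 0.65 for Tyms and 0.60 for Rrm1. For chromatin and histone messenger RNA the difference was 2.06 for Uhrf1, 1.26 for Chaf1a, 0.91 for Slbp and 0.41 for Chaf1b. For the E2F factors the difference was 0.93 for E2f1 and 0.54 for E2f2. The adjusted p ranged from 6.6e-18 for Cdc6 to 0.014 for Rpa3. The Dixon test of single libraries needs groups of 4 or more and was not run on groups of 3.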

How the results depend on the processing

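Of 244 called values of members over the 7 comparisons, 216 kept their call and direction under every alternative fit (fold limits, which change only the call, are not counted here), 28 lost the call in at least 1, and 0 were reversed. Values not called in the main fit gained a call 19 times over these fits. They were Rfc2 after OGD/R in shCtrl cells, Rfc4 after OGD/R in shAnxa2 cells, Prim1, Rfc4 and Tyms between the untreated lines, and the interaction of Tk1. With fold limits of over 1.2 or under 0.8, from the general methods of the study, 27 members fell in shCtrl cells (19.6% of all genes), 35 rose in shAnxa2 cells (19.1%) and 41 had a called interaction (32.2%). With those limits 0 members were higher (22.6%) and 27 lower (16.6%) in untreated shAnxa2 than shCtrl cells, 35 higher after OGD/R (26.5%), 9 higher (13.3%) and 1 lower (11.4%) in shAnxa2-CTRL than shCtrl-OGDR, and 7 higher (12.7%) and 1 lower (8.69%) in shAnxa2-OGDR than shCtrl-CTRL. With a limit of 1.5-fold either way, tried after the data were seen, 18 fell in shCtrl cells (8.27%), 10 rose in shAnxa2 cells (4.17%), 0 were higher (9.77%) and 9 lower (5.81%) in untreated shAnxa2 cells, 20 were higher after OGD/R (11.8%) and 35 had a called interaction (19.8%). With it 0 were higher (3.54%) or lower (4.22%) in shAnxa2-CTRL than shCtrl-OGDR, and 0 higher (2.74%) or lower (3.21%) in shAnxa2-OGDR than shCtrl-CTRL. With library totals in place of TMM factors, 1 member, Rfc2, rose in shCtrl cells (3790 of all genes) and 7 were lower in shAnxa2-OGDR than shCtrl-CTRL (2433 of all genes). The filter of 1 CPM also gave 1 higher member in shCtrl cells (3793 of all genes). A fit on only the 2 groups gave 7 lower in shAnxa2-OGDR than shCtrl-CTRL (2300 of all genes). The cause of these shifts was not tested. Leaving out 1 library at a time, members higher in shCtrl cells numbered 0 to 1, members higher in untreated shAnxa2 cells 1 to 2, and members lower in shAnxa2-CTRL than shCtrl-OGDR 3 to 8.

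Values that changed sign were all uncalled and near 0 on the log2 scale. For Gins4 between untreated lines they were 0.0024 with median-of-ratios factors, 0.0023 with library totals, 0.0023 with DESeq2, 0.0087 without a filter, 0.0051 with the filter of 1 CPM and 0.0052 on the 2 groups alone, and -0.043 to 0.032 leaving out 1 library. With library totals Gins4 was -0.0020 between the lines after OGD/R and -0.0043 for the interaction, and Rrm1 was -0.0022 between the lines after OGD/R. Leaving out 1 library, the first of these ranged from -0.0055 to 0.049, the interaction of Gins4 from -0.0098 to 0.070 and Rrm1 from -0.029 to 0.063. The same fits gave Pold1 after OGD/R in shCtrl cells -0.0028 to 0.056, Rfc5 after OGD/R in shAnxa2 cells -0.086 to 0.0047, Gins2 and Rfc5 between untreated lines -0.15 to 0.053 and -0.0756 to 0.0148, and Rpa3 between the lines after OGD/R -0.026 to 0.10.

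The replicate numbers were also fitted as a block. Deviations of same-numbered libraries from their group means had correlations of -0.08 to 0.18, and those of other pairs -0.15 to 0.11. The highest was between the third libraries of shAnxa2-CTRL and shAnxa2-OGDR. With the replicate block 39 members fell in shCtrl cells, 43 rose in shAnxa2 cells, 37 were lower in untreated shAnxa2 cells, 38 higher after OGD/R and 42 had a called interaction. In the main fit 31.0%, 28.2%, 29.7%, 33.8% and 34.9% of all genes had these calls, in the same order. Between shAnxa2-CTRL and shCtrl-OGDR the block gave 19 higher and 7 lower, against 22.1% and 22% of all genes in the main fit. Between shAnxa2-OGDR and shCtrl-CTRL it gave 13 higher and 4 lower, against 21.5% and 18.4%. Shares of all genes in the block fit are not given here, so its counts show only how far the member calls moved. Not every library correlated best with the others of its own number. The biological coefficient of variation over all genes was 5.35%, counting error adds to it for members with few counts such as Pole2, and 3 libraries a group limit what can be said of small differences such as those of Gins4, Rfc2 and Rfc5.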

Other observations

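Some regulators moved against the members, not all of them in both lines. Rb1, which restrains E2F factors, changed by 0.74 (SE 0.08, adjusted p = 4.7e-08) after OGD/R in shCtrl cells and -0.67 (SE 0.09, adjusted p = 1.7e-06) in shAnxa2 cells, and its relative Rbl2 by 0.75 (SE 0.07, adjusted p = 2.2e-09) and -0.60 (SE 0.07, adjusted p = 3.2e-07), by the same edgeR fit. The related Rbl1 was at -0.25 and 0.02, the second not called. Of the kinase inhibitors, Cdkn1b rose by 0.53 (SE 0.07, adjusted p = 2.9e-07) in shCtrl cells and was -0.30 (SE 0.07, adjusted p = 6.6e-04) in shAnxa2 cells, while Cdkn1a, a target of p53, was 0.12 (SE 0.12, adjusted p = 0.40) and -0.85 (SE 0.12, adjusted p = 1.3e-06). Cdkn2c was 0.06, not called, in shCtrl cells and 0.31, called, in shAnxa2 cells, there with the main direction of the members. These genes were chosen after their values were seen.

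Of the D-type cyclins, which drive passage through G1, Ccnd2 changed by -1.39 (SE 0.06, adjusted p = 1.2e-15) after OGD/R in shCtrl cells and 0.60 (SE 0.05, adjusted p = 9.2e-10) in shAnxa2 cells, and after OGD/R the shAnxa2 line exceeded the shCtrl line by 3.11 on the log2 scale. It also stood higher in shAnxa2-OGDR than in shCtrl-CTRL, by 1.72. Its mean was 83.6 CPM in shCtrl-CTRL, 32.0 in shCtrl-OGDR, 182 in shAnxa2-CTRL and 275 in shAnxa2-OGDR. Ccnd2 was thus higher in the shAnxa2 line without treatment as well, where most members were lower. Ccnd1 changed by -1.07 (SE 0.05, adjusted p = 4.0e-14) and 0.52 (SE 0.05, adjusted p = 2.2e-08), and Ccnd3 by -0.24 and 0.31. The cyclins were also chosen after their values were seen.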
